A study of Mus musculus with 9 samples.

Results

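Liver RNA of Tet-OFF mice was examined here for 9 genes, the 8 members of the Cyp3a subfamily given by name below and Nr1i2, which encodes the pregnane X receptor (PXR). The members were chosen by symbol, as the rows of Cyp3a11, Cyp3a13, Cyp3a16, Cyp3a25, Cyp3a41a, Cyp3a41b, Cyp3a44, Cyp3a59 and Nr1i2, and they are 9 of the 32285 genes in the table. In the Tet-OFF mice a piggyBac CAG-CreERT2 transgene, an LSL-tTA allele and a reporter allele, tetO-Venus-ires-mCherry, are combined, so that tamoxifen removes the stop cassette and tTA drives Venus until a tetracycline is given. The study sequenced 3 livers of each of 3 groups to compare what the drugs do to the liver: Control mice received tamoxifen only, Dox mice received tamoxifen and doxycycline, and Tc mice received tamoxifen and tetracycline. Each drug was given at 2 mg/mL for 7 days from 4 weeks of age, in water that held 10 mg/mL sucrose. The study describes the mice as male, and the labels give neither the sex of each mouse nor whether Control mice drank the sucrose. All 3 groups carried the transgenes and the tamoxifen, the CAG promoter is active in most cell types, and the methods describe injection of the targeted ES cells into host blastocysts without saying whether the sequenced livers came from chimeric mice or their offspring. Dox lacks a ring hydroxyl group that Tc carries and has one at the neighbouring carbon.

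CYP3A enzymes are haem proteins of the endoplasmic reticulum that oxidise drugs, steroids and bile acids, with electrons supplied by the reductase Por. PXR is a nuclear receptor that binds many foreign chemicals and bile acids, pairs with RXR and switches on Cyp3a11 and other detoxification genes. In mouse liver Cyp3a11 is the main adult form, Cyp3a13 is best known from the intestine, and Cyp3a16, Cyp3a41 and Cyp3a44 are known as forms of young and female livers that males lose as they mature.

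In GRCm38, 7 of the 8 Cyp3a members lie with Cyp3a57 in 1 cluster of 768 kb on chromosome 5, from 145345279 to 146113287, and Cyp3a13 lies 7424 kb before it at 137892932 to 137921619. The order along the cluster is Cyp3a57, Cyp3a16, Cyp3a41b, Cyp3a41a, Cyp3a44, Cyp3a11, Cyp3a25 and Cyp3a59, and Cyp3a57 and Cyp3a59 are on the plus strand. Nr1i2 is on chromosome 16, from 38248323 to 38294824. Each Cyp3a transcript used here has 13 exons and a coding length of 1512 or 1515 bases, and Nr1i2 has 9 exons and 1296 coding bases. Cyp3a41a and Cyp3a41b were 99.9% identical over their coding bases, Cyp3a25 and Cyp3a59 97.5%, Cyp3a41a and Cyp3a44 95.8%, Cyp3a11 and Cyp3a44 94.9%, and Cyp3a11 and Cyp3a25 76.0%.

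The sequences before the start sites are shown for 6 members, so that the near copies can be set beside their levels: Cyp3a11, Cyp3a25 and Cyp3a59, whose means were highest in Dox, and Cyp3a44, Cyp3a41a and Cyp3a16, which were near 0 in Dox. The lines give the 250 bases before the RefSeq start of each gene (GRCm38.p6, 5′ to 3′ on the gene's strand), and capitals mark the motifs AGTTCA and AGGTCA on either strand, the core letters of the elements that PXR and RXR bind.
Cyp3a11: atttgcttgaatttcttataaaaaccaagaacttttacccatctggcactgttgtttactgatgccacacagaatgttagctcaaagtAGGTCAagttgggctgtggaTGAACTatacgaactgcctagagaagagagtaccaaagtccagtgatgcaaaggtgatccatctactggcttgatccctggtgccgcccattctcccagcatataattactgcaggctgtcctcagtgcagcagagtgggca
Cyp3a25: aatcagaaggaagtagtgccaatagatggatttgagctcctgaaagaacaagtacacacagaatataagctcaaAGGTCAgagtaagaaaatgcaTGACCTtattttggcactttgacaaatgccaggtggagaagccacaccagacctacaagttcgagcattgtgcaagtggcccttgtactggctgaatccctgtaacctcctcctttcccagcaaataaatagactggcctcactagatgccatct
Cyp3a59: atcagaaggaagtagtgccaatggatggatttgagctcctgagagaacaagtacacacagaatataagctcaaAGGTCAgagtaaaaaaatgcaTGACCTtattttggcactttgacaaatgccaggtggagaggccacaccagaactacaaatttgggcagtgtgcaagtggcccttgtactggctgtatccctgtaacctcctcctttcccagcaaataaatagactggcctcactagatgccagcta
Cyp3a44: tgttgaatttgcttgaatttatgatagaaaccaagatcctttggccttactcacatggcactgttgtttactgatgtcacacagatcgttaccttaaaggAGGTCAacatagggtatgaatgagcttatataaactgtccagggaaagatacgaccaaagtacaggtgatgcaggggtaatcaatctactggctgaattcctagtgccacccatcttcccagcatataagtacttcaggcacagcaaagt
Cyp3a41a: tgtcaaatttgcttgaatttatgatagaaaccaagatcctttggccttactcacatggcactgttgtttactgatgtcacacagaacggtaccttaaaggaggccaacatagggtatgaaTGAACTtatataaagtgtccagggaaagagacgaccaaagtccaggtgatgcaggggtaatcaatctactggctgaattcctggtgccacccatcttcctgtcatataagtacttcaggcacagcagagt
Cyp3a16: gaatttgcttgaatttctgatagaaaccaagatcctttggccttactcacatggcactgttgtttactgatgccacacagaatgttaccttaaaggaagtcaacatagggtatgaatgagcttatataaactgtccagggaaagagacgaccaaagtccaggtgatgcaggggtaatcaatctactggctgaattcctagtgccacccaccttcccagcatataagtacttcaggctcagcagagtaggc
The positions are chr5:145879855-145880104 (minus strand) for Cyp3a11, chr5:146009619-146009868 (minus strand) for Cyp3a25, chr5:146079008-146079257 (plus strand) for Cyp3a59, chr5:145805875-145806124 (minus strand) for Cyp3a44, chr5:145720137-145720386 (minus strand) for Cyp3a41a and chr5:145469724-145469973 (minus strand) for Cyp3a16.

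Cyp3a11, Cyp3a25 and Cyp3a59 each held 2 such motifs, with their first bases at -162 and -142, -176 and -155, and -177 and -156 from the start. Cyp3a57, no member here, also held 2, at -174 and -153. It was low in every group, with a mean normalized count of 6.8 in Control, 3.7 in Dox and 3.0 in Tc. Cyp3a44 held 1 at -150, Cyp3a41a and Cyp3a41b held 1 at -130, and none was found before Cyp3a16, Cyp3a13 or Nr1i2. A motif of this kind was present in 27.6% of 27025 mouse promoters of 300 bases (250 before the start and 50 after it), so 1 match is common. The share of promoters with 2 was not counted, and a link between motifs and levels was not tested. The paired forms searched were AGTTCA or AGGTCA repeated with 3 bases between (DR3) and everted with 6 bases between (ER6), both of which contain these core letters. Neither was found in these windows, and each was found in 0.011% of all promoters. TTCNNNGAA, the form bound by the growth hormone signal carrier STAT5, was also not found before any member, and 8.5% of promoters held it. Over the 300 bases, Cyp3a16 and Cyp3a44 were 93.4% identical, Cyp3a41a and Cyp3a44 93.0%, Cyp3a25 and Cyp3a59 95.7%, Cyp3a11 and Cyp3a44 71.2%, and Cyp3a11 and Cyp3a25 51.5%.

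Levels below are normalized counts, the reads of a gene divided by a size factor for its library. Whole reads could be recovered from them and summed to between 8250804 and 10912338 in Control, 7426136 and 10330238 in Dox, and 10216627 and 12183041 in Tc. Differences were tested with limma on log2(normalized count + 1), in 1 model of all 9 libraries, for the 12100 genes that averaged 10 or more, all 9 members among them. A gene was called where the change exceeded 2-fold at an adjusted p (Benjamini-Hochberg) under 0.05. Libraries of 1 group differed widely: 586 tested genes differed by over 2-fold between libraries 1 and 2 of Control, 4264 in Dox and 1022 in Tc. Library 3 lay between the other libraries for 501, 4139 and 962 of these genes, at a median of 48.5%, 36.7% and 39.9% of the way from library 1 to library 2. The study describes its samples as independent, which these values cannot settle, and the counts of limma calls are therefore also given without libraries 3. Liver markers were abundant in all 9 libraries but not level. Alb was between 956160 and 1408836 in Control, 255548 and 607452.5 in Dox, and 576729 and 1093211 in Tc. Dox library 2 had the lowest Ttr (6796) and Serpina1c (1997) and the highest Cps1 (127213). The pancreatic genes Cpa1, Pnlip and Prss2 were at 0 reads, and the Y-linked Ddx3y was between 546 and 1140. The RNA came from whole liver, so fewer cells of a type and less RNA per cell cannot be told apart.

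By uniquely mapped reads and transcript length, Cyp3a11 made up most of the Cyp3a level in every library. The 8 Cyp3a genes together held 0.295 to 0.365% of the recovered reads of a Control library, 0.484 to 0.551% of a Dox library and 0.252 to 0.420% of a Tc library. The Dox range lay above the other ranges, and the Control and Tc ranges overlapped. Only uniquely mapped reads were counted, so these shares may leave out most reads of Cyp3a41a and Cyp3a41b, which were nearly silent in Dox. Whether the Dox range would stay above Control with those reads counted was not tested. Each share also depends on the other RNA of its library, and Alb was lower in every Dox library than in any Control library. Of their summed level per kb of transcript, Cyp3a11 held 74.7, 78.4 and 76.3% in the Control libraries, 85.5, 81.0 and 83.9% in Dox and 87.7, 68.2 and 81.5% in Tc. In Control the mean level per kb was 11561 for Cyp3a11, 1189 for Cyp3a44, 920.1 for Cyp3a13, 914 for Cyp3a25, 389 for Cyp3a41a, 279 for Nr1i2, 140 for Cyp3a16, 29.1 for Cyp3a59 and 21.9 for Cyp3a41b. Cyp3a44, Cyp3a13 and Cyp3a25 did not differ beyond the spread of Cyp3a44 between the Control libraries, and neither Nr1i2 and Cyp3a16 nor Cyp3a59 and Cyp3a41b had library ranges per kb that were apart. In Dox, Cyp3a25 came second at 2557 per kb and the 4 genes Cyp3a16, Cyp3a41a, Cyp3a41b and Cyp3a44 were each below 3 per kb.

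**Figure D1:**
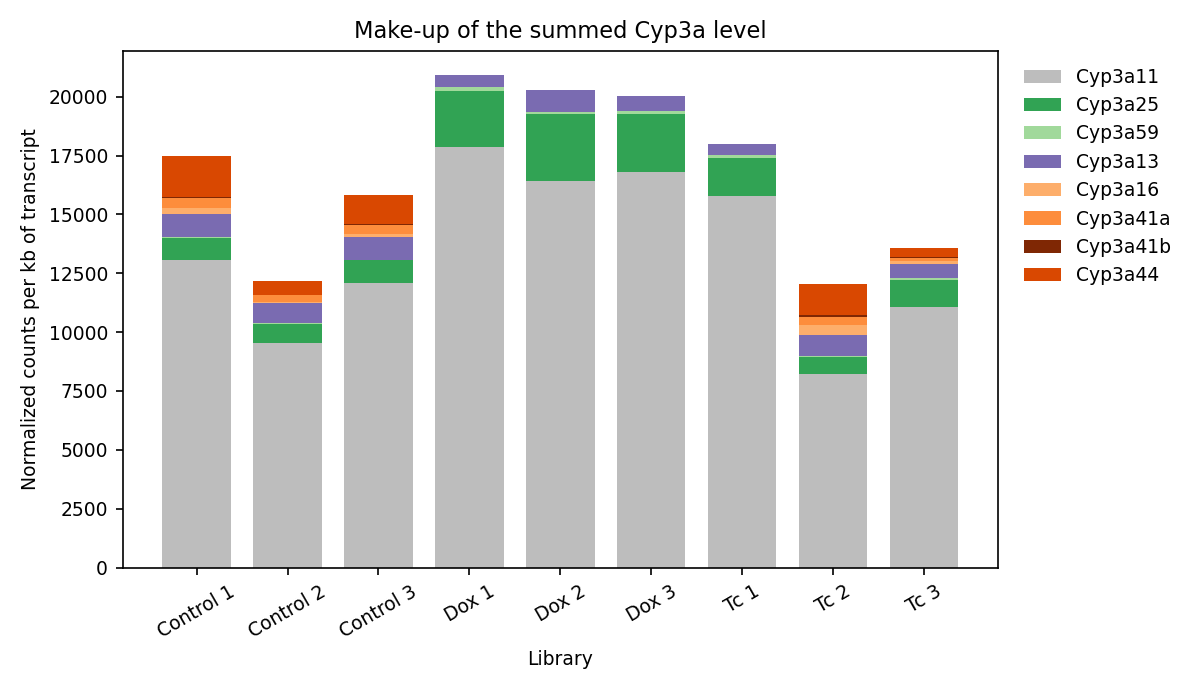
Normalized counts per kb of transcript, summed over the 8 Cyp3a members, in each of the 9 libraries, with 1 colour per gene. The orange and brown parts (Cyp3a16, Cyp3a41a, Cyp3a41b and Cyp3a44) hold 7.73 to 14.2% of the Control bars and 17.8% of the Tc 2 bar, and are too thin to see in the 3 Dox bars and in Tc 1. Uniquely mapped reads are set against the whole transcript, so the parts of Cyp3a41a and Cyp3a41b may be too small.

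Reads of Cyp3a41a and Cyp3a41b are the least certain. Of the 86-base windows of the Cyp3a41a transcript, the read length here, 6.3% occur in no other gene, and 89.9% also occur in Cyp3a41b. For Cyp3a41b the shares are 10.3% and 89.7%. Since the authors counted uniquely mapped reads, the level of either gene rests on a small part of its transcript, and the reads of the pair may be split between them. The other members had 91.7 to 100% of their windows to themselves. Set against those windows in place of length, Cyp3a41a in Control had 6461 normalized counts per 1000 windows, above Cyp3a44 with 1355 and below Cyp3a11 with 12257. The order of these genes by level therefore depends on how shared reads were handled.

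Under Dox, Cyp3a25 and Cyp3a59 rose and Cyp3a41a and Cyp3a44 fell, while Cyp3a11, Cyp3a13, Cyp3a16, Cyp3a41b and Nr1i2 did not pass the test. That is 4 of 9 members called, where 5% of all tested genes were called in this comparison (1.14% higher, 3.86% lower). The ranges of the 3 Dox and 3 Control libraries did not overlap for 3 members that were higher (16.1% of tested genes) and 4 that were lower (17.1%). The median log2 fold change was -0.51 over the members and 0.00 over all tested genes, since the members moved both ways. With all libraries 6 members had an unadjusted p under 0.05 in limma, as did 29.1% of tested genes. Without libraries 3, limma called 0 members and 0 of the 12100 genes, and 4 members (8.6% of tested genes) had an unadjusted p under 0.05. On the recovered reads, edgeR called the same 4 members as limma with all libraries (5.52% of tested genes), and DESeq2 called 6, adding Cyp3a16 and Cyp3a41b, where it called 9.4% of tested genes. Without libraries 3, DESeq2 called Cyp3a41a and Cyp3a44, and 1.2% of tested genes. The 4 calls of limma became 0 when any 1 of the 3 Control libraries or Dox library 3 was left out.

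Cyp3a11, the main drug- and bile acid-metabolising form and the classical PXR target, had 30602, 22381 and 28316 normalized counts in Control libraries 1 to 3, 41887, 38501 and 39373 in Dox, and 37030.2, 19226 and 25975 in Tc. Every Dox library was above every Control and Tc library, and the Tc libraries spread over the whole Control range and beyond it on both sides. The means were 27099.6 ± 4243 in Control, 39920.1 ± 1758 in Dox and 27410.4 ± 8988 in Tc (SD, n = 3). The log2 fold change of Dox against Control was 0.57 (SE 0.29, 95% interval -0.08 to 1.22) with an adjusted p of 0.221 in limma, so the rise in the mean did not pass the test. It was 0.62 without libraries 3 (limma adjusted p = 0.690).

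Cyp3a25, a neighbour of Cyp3a11 that also hydroxylates steroids and drugs, had 1909, 1623 and 1950.3 normalized counts in Control, 4729, 5674 and 4938 in Dox, and 3195, 1516 and 2298 in Tc. The 3 Dox libraries lay together above all others, and only Tc library 2 was within or below the Control range. The log2 fold change of Dox against Control was 1.48 (SE 0.25, 95% interval 0.92 to 2.05, limma adjusted p = 0.0150), or 2.80-fold. Without libraries 3 it was 1.56, with an adjusted p of 0.559 in limma and 0.0555 in DESeq2.

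Cyp3a59, a close copy of Cyp3a25 whose enzyme is little studied, was low throughout. It had 66.7, 51.3 and 55.9 normalized counts in Control, 355, 194 and 286 in Dox, and 263, 71.9 and 161 in Tc. Both drug groups were above Control in every library, and Tc library 2 came nearest to it. The log2 fold change of Dox against Control was 2.21 (SE 0.43, 95% interval 1.24 to 3.18, limma adjusted p = 0.0213), or 4.63-fold, and without libraries 3 it was 2.15 (limma adjusted p = 0.559, DESeq2 adjusted p = 0.0977). Of the windows of Cyp3a59, 7.9% are shared with Cyp3a25, the gene with more than 10 times its reads in every library.

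Cyp3a13 is the member outside the cluster. It had 2818, 2514 and 2828 normalized counts in Control, 1446, 2724 and 1767 in Dox, and 1407, 2624 and 1673 in Tc. Library 2 of each drug group was at the Control level and the other libraries were lower, so the groups overlapped. The log2 fold change was -0.51 for Dox (SE 0.28, limma adjusted p = 0.263) and -0.57 for Tc (SE 0.28, limma adjusted p = 0.495), and without libraries 3 it was -0.42 and -0.47 (limma adjusted p = 0.738 and 1).

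**Figure D2:**
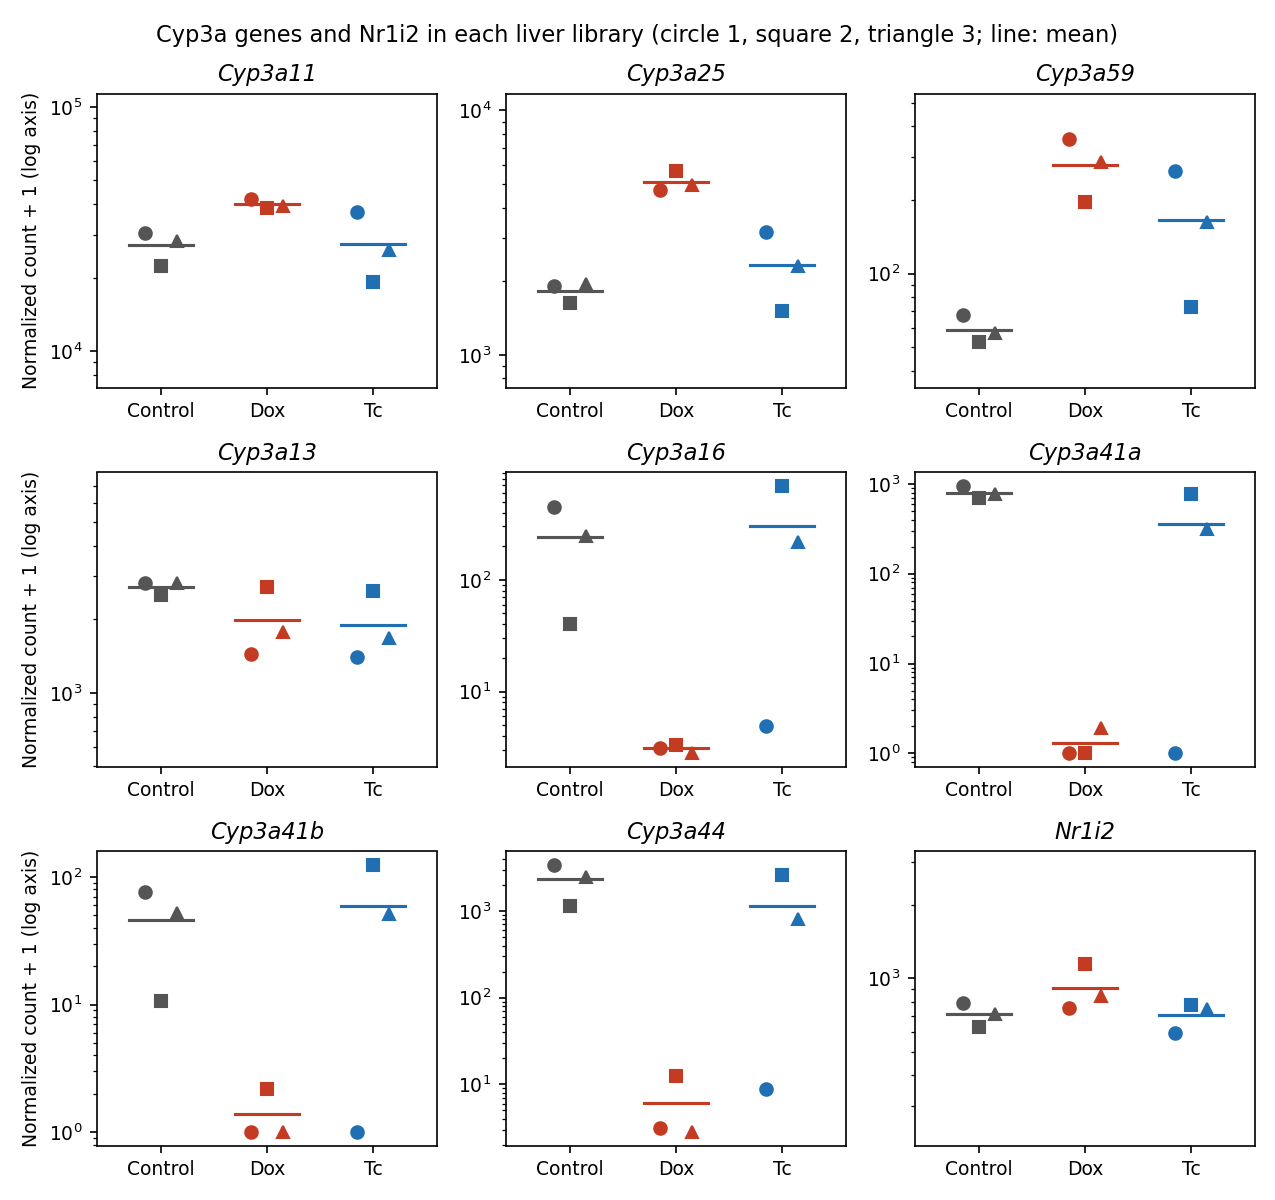
Normalized count + 1 of each member on a log axis (each panel has its own range) in the Control, Dox and Tc libraries, with circles, squares and triangles for libraries 1, 2 and 3 and a line at the group mean. The 3 Dox points sit apart from the 3 Control points in every panel except Cyp3a13 and Nr1i2, and Tc library 1 sits with the Dox points for Cyp3a16, Cyp3a41a, Cyp3a41b and Cyp3a44.

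The other 4 genes of the cluster, the forms known from young and female livers, were nearly silent in every Dox library and in 1 Tc library. Cyp3a44 had 3406, 1138 and 2454 normalized counts in Control, 2.1, 11.5 and 1.8 in Dox, and 7.8, 2576 and 801 in Tc. Cyp3a41a had 951, 687 and 765 in Control, 0, 0 and 0.9 in Dox, and 0, 767 and 314 in Tc. Cyp3a16 had 442.5, 38.9 and 244 in Control, 2.1, 2.3 and 1.8 in Dox, and 3.9, 692 and 219 in Tc. Dox and Control did not overlap for any of them, whereas the Tc libraries reached both below and above the Control range for Cyp3a16. Cyp3a41b followed the same order at 75.2, 9.7 and 50.9 in Control, 0, 1.2 and 0 in Dox, and 0, 123.2 and 50.5 in Tc.

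The fold change limits of these genes are set by few reads. Cyp3a44 had 14 reads in the 3 Dox libraries together, and its Control mean of 2333 was 455 times the Dox mean (95% exact Poisson interval on the Dox reads 271 to 833, for counting error only). Cyp3a16 had 6 reads, and a Control mean of 242 that was 118 times the Dox mean (54.1 to 321). Cyp3a41a had 1 read, for a ratio of 2732 (490.3 to 107897), and Cyp3a41b had 1 read, for a ratio of 118 (21.2 to 4661). These intervals leave out the spread between livers, which was wide in Control: Cyp3a16 differed 11.4-fold between Control libraries 1 and 2.

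In limma, Cyp3a44 fell by 8.80 on the log2(normalized count + 1) scale (SE 1.80, 95% interval -12.89 to -4.71, adjusted p = 0.0249) and Cyp3a41a fell by 9.33 (SE 2.06, 95% interval -14.03 to -4.63, adjusted p = 0.0320). Cyp3a16 had a log2 difference of -5.74 (SE 1.64, limma adjusted p = 0.0637) and Cyp3a41b one of -4.76 (SE 1.62, limma adjusted p = 0.1003), and neither passed. DESeq2 on the recovered reads of all libraries called both, with adjusted p = 0.000166 and 0.0128. Without libraries 3 the limma differences were -8.30, -9.66, -5.38 and -4.29 for Cyp3a44, Cyp3a41a, Cyp3a16 and Cyp3a41b, none with an adjusted p under 0.05, while DESeq2 gave adjusted p = 0.0215 for Cyp3a44 and 4.69e-05 for Cyp3a41a.

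Cyp3a57, the remaining Cyp3a row of the table and no member here, stayed under the filter, with 4.4 to 8.5 normalized counts in Control, 3.5 to 4.2 in Dox and 1.7 to 5.4 in Tc. At a handful of reads per library no difference could be read from it.

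Under Tc, no member was called by limma with all libraries or by edgeR, where limma called 0.165% of tested genes and edgeR 0.174%. In limma 1 member, Cyp3a59, had an unadjusted p under 0.05, as did 11.7% of tested genes, and it was the member whose Tc and Control ranges did not overlap (15.8% of tested genes were higher in that way and 14.9% lower). In the DESeq2 fit of recovered reads from all libraries Cyp3a59 was called (adjusted p = 0.0341, 1.56% of tested genes called). Without libraries 3, neither limma nor DESeq2 (0.0744% of tested genes) called a member, and 0 members (1.98% of tested genes) had an unadjusted p under 0.05 in limma. The limma log2 fold change of Cyp3a59 was 1.32 (SE 0.43, 95% interval 0.34 to 2.29, adjusted p = 0.313), and that of Cyp3a25 was 0.29 (SE 0.25, 95% interval -0.27 to 0.86, adjusted p = 0.724). For Cyp3a11 it was -0.02 (SE 0.29, 95% interval -0.67 to 0.63, adjusted p = 0.988 in limma), an interval that holds losses as well as gains. For Cyp3a44 it was -3.01 (95% interval -7.10 to 1.08, limma adjusted p = 0.577) and for Cyp3a41a -3.67 (95% interval -8.37 to 1.02, limma adjusted p = 0.550).

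These wide intervals come with 3 unlike Tc libraries. Tc library 1 had 4 reads of Cyp3a16, 8 of Cyp3a44 and none of Cyp3a41a or Cyp3a41b, and against the floor of 3 reads its Cyp3a41a level was at least 273.5-fold lower than the Control mean and its Cyp3a41b level at least 15.4-fold lower. Tc library 2 had Cyp3a16 and Cyp3a41b above every Control library and Cyp3a11 below every Control library. Tc library 3 lay between them for all 9 members. Without Tc library 1, the limma log2 difference of Tc against Control turned to 1.26 for Cyp3a16 and 1.20 for Cyp3a41b.

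Given at the same dose for the same time, Dox and Tc differed past the thresholds for no member in limma or edgeR with all libraries, which does not show that they act alike. In limma 0 members were called and 5 had an unadjusted p under 0.05, against 0.215% and 21.7% of tested genes, and edgeR called none of the tested genes. The ranges of the Dox and Tc libraries did not overlap for Cyp3a11 and Cyp3a25, higher in Dox (12.2% of tested genes), or for Cyp3a16, lower in Dox (12.4% of tested genes). Cyp3a25 had the smallest adjusted p, with a log2 difference of Dox against Tc of 1.19 (SE 0.25, 95% interval 0.62 to 1.76, limma adjusted p = 0.0878). Cyp3a11 differed by 0.59 (SE 0.29, 95% interval -0.06 to 1.24, limma adjusted p = 0.259). The intervals were -9.88 to -1.70 for Cyp3a44, -10.35 to -0.96 for Cyp3a41a, -8.63 to -1.16 for Cyp3a16 and -0.08 to 1.87 for Cyp3a59.

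DESeq2 on the recovered reads of all libraries called 5 members between the drugs, Cyp3a25 higher in Dox (adjusted p = 0.00156) and Cyp3a16, Cyp3a41a, Cyp3a41b and Cyp3a44 lower in Dox (adjusted p from 3.5e-05 to 0.0160), where it called 4.98% of tested genes. Without libraries 3, DESeq2 called Cyp3a41a alone (adjusted p = 0.000764, 0.256% of tested genes called) and limma called 0 members, with 1 (3.75% of tested genes) at an unadjusted p under 0.05. Leaving out Tc library 1, limma called 5 members for Dox against Tc. The comparisons with Control share the 3 Control libraries, so their values are given side by side and not compared with each other.

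**Figure D3:**
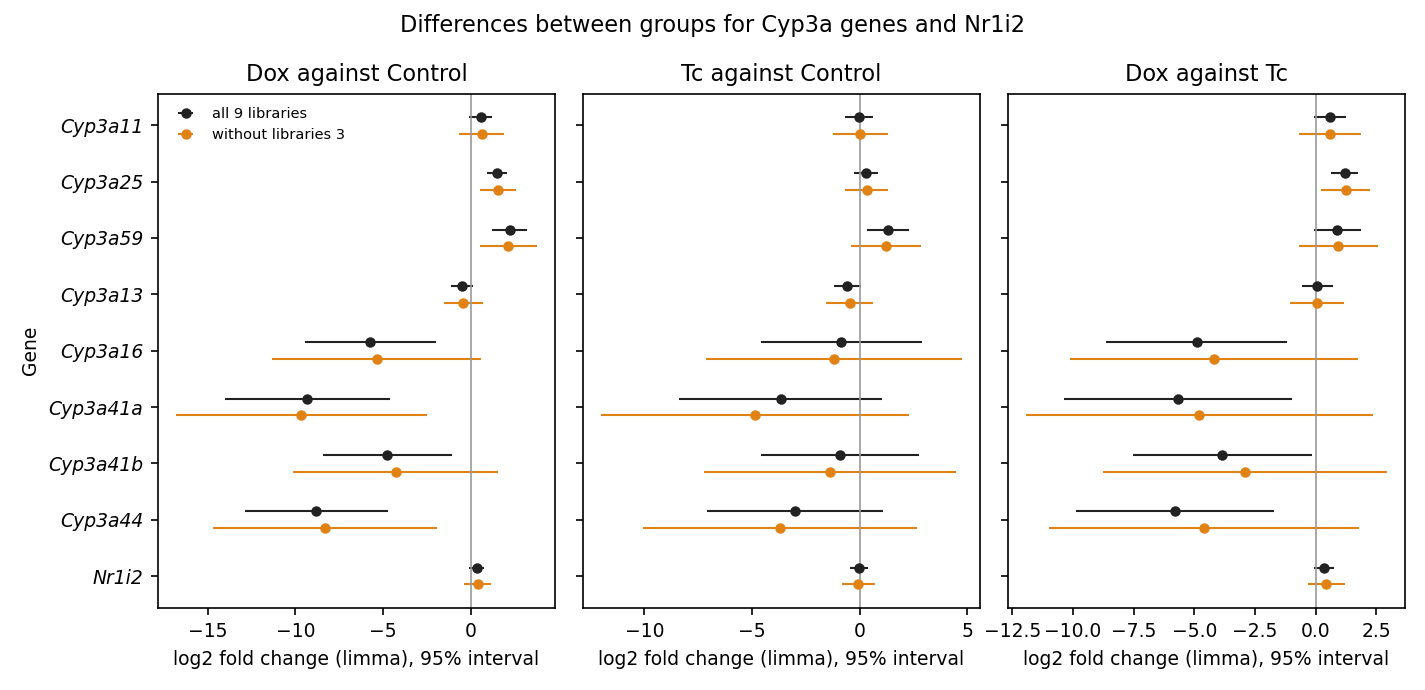
Log2 fold changes from limma with 95% intervals for the 9 members in the 3 comparisons (panels, each with its own range), with all 9 libraries in black and without libraries 3 in orange. Without libraries 3 the estimates keep their side of 0, except Cyp3a11 under Tc (-0.02 and 0.03), and every interval widens.

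Nr1i2, the gene of PXR itself, passed the test in no comparison. It had 792, 633 and 714.5 normalized counts in Control, 756, 1136.5 and 844 in Dox, and 597, 777 and 745 in Tc. Dox library 2 was the highest and the groups overlapped. The log2 fold change was 0.34 for Dox (SE 0.18, 95% interval -0.08 to 0.76, limma adjusted p = 0.255), -0.02 for Tc (SE 0.18, 95% interval -0.44 to 0.40, limma adjusted p = 0.987) and 0.36 for Dox against Tc (SE 0.18, limma adjusted p = 0.280). With all libraries the interval for Nr1i2 lay within a 2-fold change in each comparison. Without libraries 3 the log2 fold changes were 0.39, -0.06 and 0.44 (limma adjusted p = 0.676, 1 and 0.755), and the intervals reached 1.15 for Dox against Control and 1.21 for Dox against Tc, beyond 2-fold.

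Of 20 partners and regulators of PXR, limma with all libraries called 0 in each of the 3 comparisons, and 5, 4 and 5 had an unadjusted p under 0.05 for Dox against Control, Tc against Control and Dox against Tc, where 29.1%, 11.7% and 21.7% of all tested genes did. Without libraries 3, limma and DESeq2 called 0 in each, and 2, 1 and 1 had an unadjusted p under 0.05 in limma (8.6%, 1.98% and 3.75% of tested genes). Their median log2 fold changes were 0.25, 0.14 and 0.03, against 0.00, 0.00 and -0.02 over all tested genes. edgeR also called 0, and DESeq2 called Ppargc1a, a coactivator of fasting metabolism, as higher in Dox than in Control and in Tc, 1 of 20 in each where it called 9.4% and 4.98% of tested genes. Ppargc1a had 82.3 to 204 normalized counts in Control, 108.5, 1463 and 604 in Dox and 126 to 151 in Tc, so Dox library 2 set its level. Foxa2 and Hsp90aa1 passed the adjusted p limit for Dox against Control in limma with all libraries, but changed by less than 2-fold. Their log2 fold changes were -0.87 (limma adjusted p = 0.0175) and 0.83 (limma adjusted p = 0.0338). Without libraries 3 the limma adjusted p was 0.564 and 0.566.

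Rxra, the partner receptor of PXR, stayed between 5408 and 6887 normalized counts in all 9 libraries, with a log2 fold change of 0.08 for Dox and 0.24 for Tc (SE 0.14, limma adjusted p = 0.738 and 0.552). Nr1i3, which encodes the sister receptor CAR, had 741, 855.5 and 805 in Control, 1340.4, 673 and 1123.5 in Dox, and 1471, 1486 and 1481.5 in Tc. Tc was above Control and Dox in every library, at a log2 fold change of 0.89 against Control (SE 0.23, limma adjusted p = 0.201). Por, the reductase that serves all microsomal P450 enzymes, had 7508, 4231 and 5726 in Control, 4128, 26717 and 12017 in Dox, and 6798, 7601 and 7852 in Tc. Its Dox libraries lay on both sides of the other groups, and the log2 fold change was 0.95 (SE 0.57, limma adjusted p = 0.299). Without libraries 3 the log2 fold changes were 0.07 for Dox and 0.19 for Tc in Rxra, 0.89 for Tc in Nr1i3 and 0.90 for Dox in Por, with limma adjusted p from 0.726 to 1.

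Of 30 other genes known to respond to PXR ligands in mouse liver, 28 were tested. This list, like that of the partners, was chosen with earlier results of these data known, so its shares are descriptions and no independent test. Under Dox, 5 rose and 0 fell (1.14% of tested genes rose), under Tc 0 were called and 9 had an unadjusted p under 0.05 (11.7% of tested genes), and between Dox and Tc 0 were called and 6 had an unadjusted p under 0.05 (21.7% of tested genes). The median log2 fold change of the 28 was 0.74 for Dox, 0.45 for Tc and 0.25 for Dox against Tc, against medians near 0 over all tested genes. Without libraries 3, limma called 0 of them in each comparison (6, 2 and 3 had an unadjusted p under 0.05, against 8.6%, 1.98% and 3.75% of tested genes), whereas Cyp2c55, Cyp2a5, Gstm1 and Gstm3 were called by DESeq2 for Dox (1.2% of tested genes). With all libraries DESeq2 called 9 for Dox, 6 for Tc and 4 for Dox against Tc, where it called 9.4%, 1.56% and 4.98% of tested genes. edgeR called 5, 0 and 0 (5.52%, 0.174% and 0% of tested genes).

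The 5 genes that rose were Cyp2c55, Cyp2a5, Cyp2c37, Gstm1 and Gstm3. Gstm1, a glutathione transferase, had 2730, 2911.5 and 2993 normalized counts in Control, 13692, 7319 and 10746 in Dox and 7816, 3552 and 5788 in Tc, at a log2 fold change for Dox of 1.83 (SE 0.31, limma adjusted p = 0.0150). Gstm3 of the same family had 58.2, 62.8 and 57.2 in Control, 422, 594 and 484 in Dox and 483, 75.5 and 317.5 in Tc, at 3.04 (SE 0.57, limma adjusted p = 0.0189). Both were above Control in every drug library. Cyp2a5, a coumarin hydroxylase also known to respond to other stress signals, had 2385, 828 and 1734 in Control, 7440.4, 36492 and 17023 in Dox and 8388, 4526 and 6111 in Tc, at 3.47 (SE 0.59, limma adjusted p = 0.0150). Cyp2c37, an arachidonic acid-metabolising enzyme, had 819 to 1665 in Control, 2508 to 6553 in Dox and 1216 to 1511 in Tc, at 1.69 (SE 0.36, limma adjusted p = 0.0291). Cyp2c55, a P450 best known from the colon, had 1.8 to 6.4 in Control, 17.3 to 245 in Dox and 5.4 to 85.0 in Tc, at 4.45 (SE 1.15, limma adjusted p = 0.0499).

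Cyp2b10, the classical CAR target that PXR can also raise, split the Dox group. It had 149, 220.3 and 187 normalized counts in Control, 22.1, 7464 and 2572.5 in Dox, and 27.3, 70.1 and 28.6 in Tc. Dox library 1 was below every Control library while Dox library 2 was above them all, and the log2 fold change of 2.05 (SE 1.77, limma adjusted p = 0.468) describes neither. DESeq2 on the recovered reads of all libraries called Cyp2b10 higher in Dox, at 4.17 against Control (SE 1.32, adjusted p = 0.0151) and 6.32 against Tc (SE 1.33, adjusted p = 0.000229). Without libraries 3 it was called by neither tool (for Dox against Control, limma adjusted p = 0.871 and DESeq2 adjusted p = 0.415). Cyp3a11 and Cyp3a25 did not split in this way, since Dox libraries 1 and 2 were both above every Control library for each of them. Between these libraries Cyp3a11 differed 1.09-fold and Cyp3a25 1.2-fold.

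**Figure D4:**
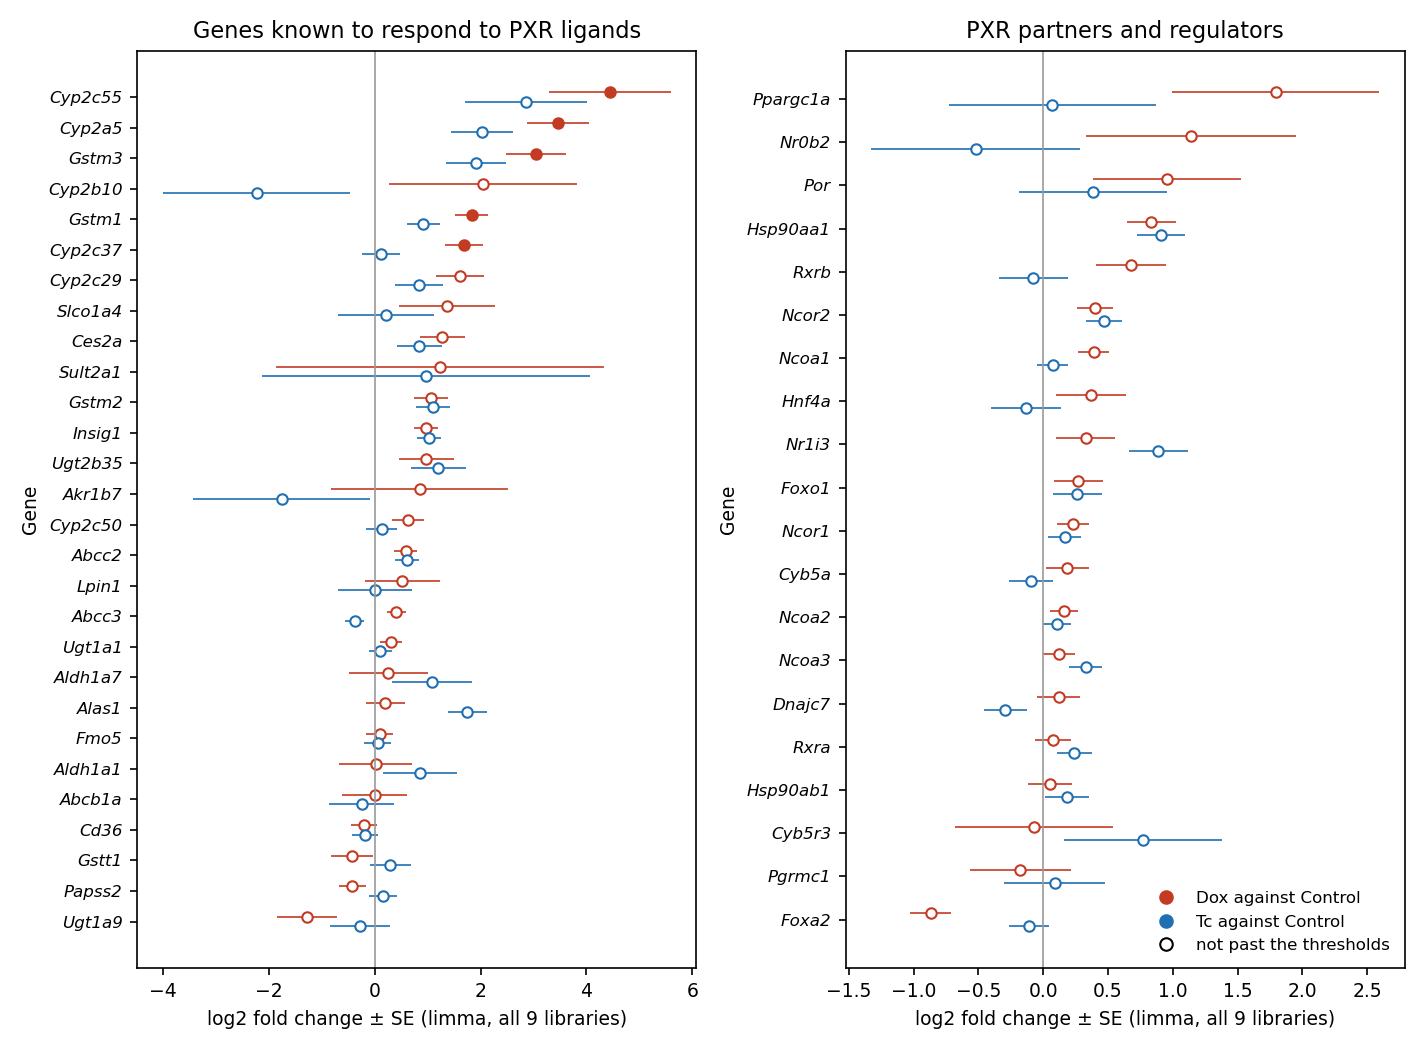
Log2 fold changes of Dox (red) and Tc (blue) against Control with their SE from limma with all 9 libraries, for 28 genes known to respond to PXR ligands (left) and 20 partners and regulators of PXR (right). Filled points passed the thresholds, which only Cyp2c55, Cyp2a5, Gstm3, Gstm1 and Cyp2c37 did, under Dox.

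Some other marker lists split the libraries as the 4 genes Cyp3a16, Cyp3a41a, Cyp3a41b and Cyp3a44 did. The summed normalized count of the 4 genes was 4874.5, 1874 and 3514 in Control, 4.2, 15.0 and 4.4 in Dox, and 11.7, 4157 and 1385 in Tc. The 7 acute phase genes, which hepatocytes raise in inflammation, had a geometric mean of normalized count + 1 of 6959.5, 8031 and 7686 in Control, 357, 303 and 427 in Dox, and 1180, 15871 and 7257 in Tc. Both series were high in Control and Tc libraries 2 and 3 and low in Dox and Tc library 1. Within Control they ran in opposite order, and within Tc in the same order. Of the Dox libraries, library 2 had the highest Cyp3a sum and the lowest acute phase mean. Saa1, a serum amyloid gene of that list, had 16764 to 23519 normalized counts in Control, 36.8 to 281 in Dox and 1695, 30975 and 13224.5 in Tc.

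The female-biased genes were also lowest in the 3 Dox libraries and Tc library 1, and the male-biased genes did not split the libraries in this way. The 7 female-biased liver genes (Cyp2b9 and A1bg among them) had a geometric mean of 511, 268 and 436 in Control, 5.2, 125 and 69.1 in Dox, and 18.2, 585.5 and 227 in Tc. The 8 male-biased genes (Cyp4a12a and Hsd3b5 among them) had 54.0, 153 and 103 in Control, 3275, 8.0 and 2025.5 in Dox, and 1661, 41.5 and 945 in Tc. The male-biased genes were lowest in Dox library 2. In Tc library 2, male-biased genes were low and the sum of the 4 Cyp3a genes was within the Control range. Of the 4, Cyp3a16 and Cyp3a41b were above every Control library there. The X-linked Xist had 44.1 normalized counts in Tc library 2, 23.6 in Tc library 3 and 2.3 to 10.6 in the other 7 libraries, while the 4 Y-linked genes of the list were present in every library.

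Markers of other liver cells moved as well. The Kupffer cell markers summed to 5652.5 to 9473 in Control, 1586 to 4154 in Dox and 2707 to 5337 in Tc, all 5 of them present in every library. The 5 endothelial markers summed to 4004 to 4126 in Control, 1925 to 2455 in Dox and 2959.8 to 3498 in Tc, so the sums of the 3 groups were apart. Stab2 and Kdr were also apart singly, and the other markers of the list were not. Clec4g overlapped between Tc and Control, and Pecam1 (338) and Lyve1 (319) in Dox library 2 were above every Control library. The 5 stellate cell markers summed to 3431 to 3618 in Control, 2885 to 3342 in Dox and 3465 to 4099.7 in Tc. These sums hide opposite moves in Dox library 2, where Dcn was at 2298, against 1025 to 1195 in Control. Col1a1 was at 92.0 there (414 to 453 in Control) and Col3a1 at 65.6 (658 to 918 in Control). The 4 lymphocyte markers summed to 25.4 to 45.1 in Control, 13.7 to 17.6 in Dox and 12.6 to 15.6 in Tc. The part of inflammation, sex-biased expression or cell make-up in the Cyp3a levels was not tested.

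**Figure D5:**
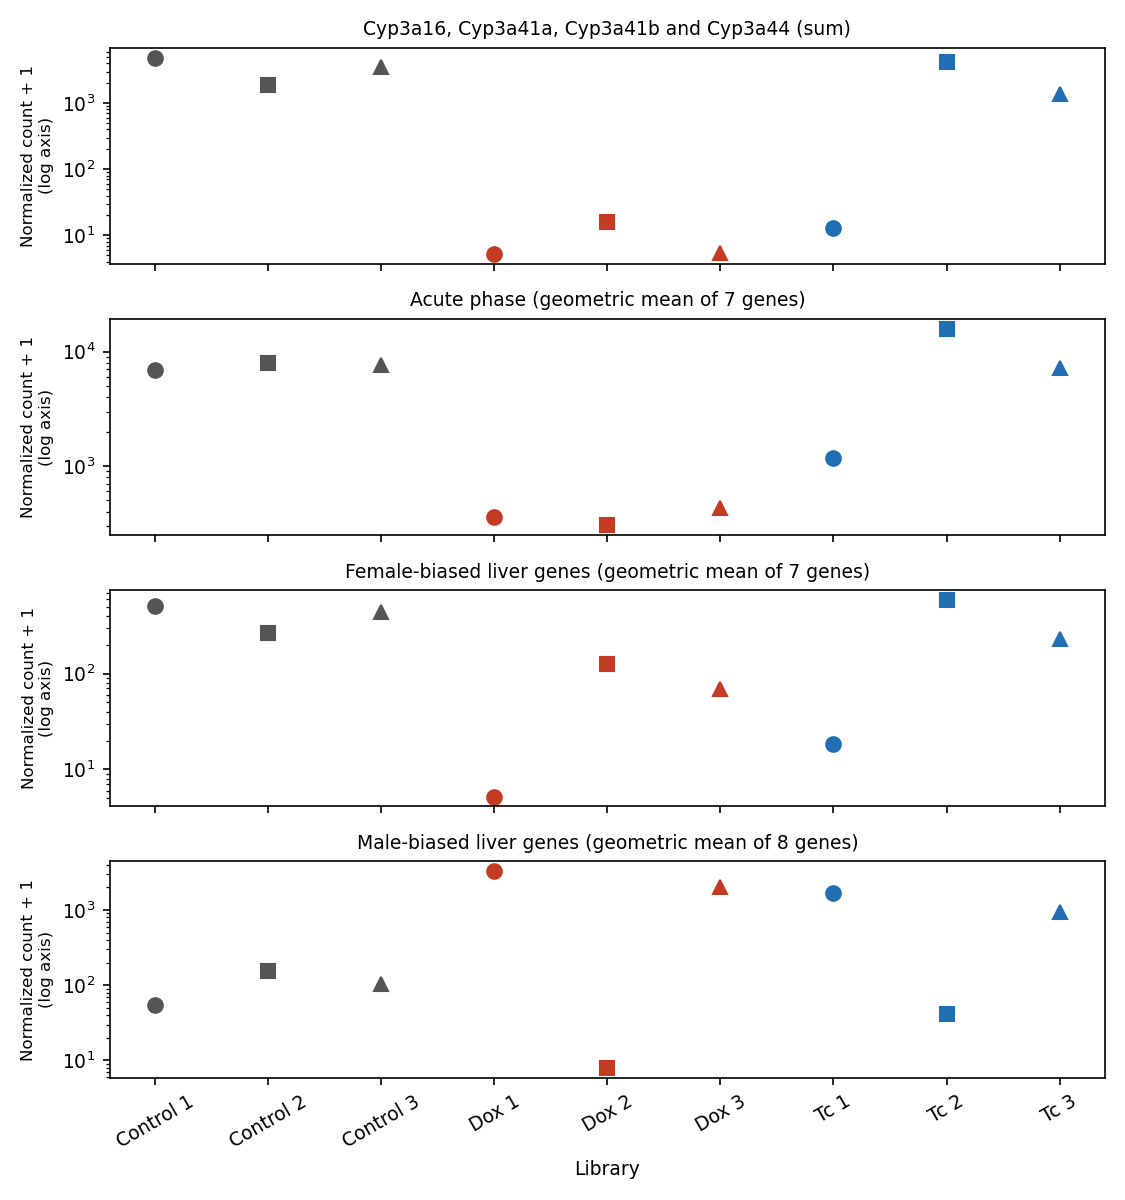
From top to bottom, the summed normalized count + 1 of Cyp3a16, Cyp3a41a, Cyp3a41b and Cyp3a44 and the geometric means of normalized count + 1 of 7 acute phase, 7 female-biased and 8 male-biased liver genes, in the 9 libraries on log axes. The Dox libraries and Tc library 1 are the 4 lowest points in the panels of the 4 Cyp3a genes, the acute phase genes and the female-biased genes, and Dox library 2 is the lowest point of the male-biased panel at 8.0.

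Among 9371 genes with a mean of at least 50, those with a pattern most like Cyp3a11 over the 9 libraries were Dyrk2, Atp6v1h and Ubp1, with Pearson r of 0.968, 0.961 and 0.959 on the log2 scale (0.977, 0.989 and 0.977 over the 6 libraries without libraries 3). Those most like Nr1i2 were Slc15a4, Glt1d1 and Tpt1, with r of 0.965, 0.963 and 0.961 (0.975, 0.975 and 0.983). Slc15a4 and Glt1d1 both had their highest level in Dox library 2, at 738.5 and 1196 normalized counts, as did Nr1i2. These are descriptions over libraries that share groups and, for libraries 3, lie between the others, and they were picked as the highest of all genes compared.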

How the data were processed

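Whole-liver RNA was sequenced in 9 libraries (single-end, 86 bases). Per the methods and the processing notes, the authors trimmed the reads with cutadapt, aligned them with STAR to mm10, counted uniquely mapped reads per gene of GENCODE M23 with HTSeq 2.0.5 and normalized the counts with DESeq2 1.42.0. The deposited values are a signal, normalized counts per gene, and symbols were found for 32158 of 32285 identifiers in GENCODE M21. The labels and the methods name different RNA kits.

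From these values, log2(normalized count + 1) was tested with limma 3.58.1 in R 4.3.3 (trend, 1 model of all groups, Benjamini-Hochberg over 12100 genes). Every value was a whole multiple of 1 read (100% within 0.01 of a read), and these reads, filtered in the same way, were tested with DESeq2 1.42.0 and edgeR 4.0.16 quasi-likelihood as alternatives. Scripts were tested on simulated data. Coding sequences, windows and coordinates are from GENCODE M21 (GRCm38) and promoters from RefSeq (GRCm38.p6, all 9 members matched). The floor for a count of 0 is 3 reads, and intervals from reads cover counting error only.

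The replicate numbers were taken to pair Dox with Tc, because deviations from the group mean correlated between libraries of 1 number (r = 0.29, 0.32 and 0.18), and not to pair Control with either. These correlations are not independent of each other, since deviations sum to 0 within a group, so they cannot settle whether the libraries are paired. The main fit did not use a pairing. The labels do not say what a number marks, and where libraries are not from separate animals p-values measure only the spread between libraries.

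The members and gene lists were chosen with earlier results of these data known. Genes named are the members, list genes called in any comparison by limma with all libraries, Rxra, Nr1i3, Por and Cyp2b10, and the 3 genes most like Cyp3a11 and Nr1i2. Ppargc1a, Foxa2, Hsp90aa1 and the marker genes given beside results were named after their values were seen. Ces6 was not matched and Gsta1 was under the filter. The alternatives, 23 in all, changed the pseudocount, the filter, the scaling, the test, the libraries in the fit, the block and the thresholds.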

Additional observations from a re-analysis of the deposited data

How the results depend on the processing

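The counts of members called for Dox against Control (4) became 0 in limma without libraries 3, 2 in DESeq2 without libraries 3, and from 0 to 6 when single libraries were left out, with 0 without any 1 of Control libraries 1 to 3 or Dox library 3 and 6 without Tc library 1. The count was also 4 with Cyp3a41a and Cyp3a41b summed and tested as 1 gene. For Tc against Control (0) DESeq2 on all reads gave 1. For Dox against Tc (0) DESeq2 gave 5, DESeq2 without libraries 3 gave 1, and leaving out single libraries gave 0 to 5, the 5 without Tc library 1. For the PXR partners and regulators (0 in each comparison), Dox against Control gave 1 with the same total per library, 1 in DESeq2, 2 with no fold change limit (Foxa2 and Hsp90aa1) and 0 to 2 with single libraries left out. Their count for Dox against Tc was 1 in DESeq2 and 0 to 3 with single libraries left out, both upper values without Dox library 1. For the genes known to respond to PXR ligands, Dox against Control (5) gave 9 in DESeq2, 0 in limma without libraries 3, 3 with only the groups compared in the fit and 0 to 10 with single libraries left out, the 10 without Dox library 2 and 0 without Control library 2, Control library 3 or Dox library 3. Tc against Control (0) gave 6 in DESeq2, 6 with only the groups compared and 0 to 4 with single libraries left out, the 4 without Dox library 2, and Dox against Tc (0) gave 4 in DESeq2 and 0 to 6 with single libraries left out, the 6 without Dox library 1. The cause of these changes was not tested, apart from the smaller number of libraries in some fits.

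With the replicate number as a replicate block in all libraries, the counts of members called were 4, 0 and 0 and those of genes known to respond to PXR ligands 6, 0 and 0. With the replicate block and only the groups compared, 1 member was called for Dox against Control, and 0 and 5 genes known to respond to PXR ligands for Dox and Tc against Control. The block changed no call between Dox and Tc, the groups whose numbers were taken to pair. Correlations of same-numbered libraries ran from -0.08 to 0.06 for Control with either drug.

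Log2 fold changes of 5 members changed sign, none of them called. For Tc against Control, Cyp3a11 (-0.02) became 0.0076 in DESeq2, 0.0038 in edgeR, 0.028 in limma and 0.081 in DESeq2 without libraries 3, and -0.27 to 0.21 with single libraries left out. Cyp3a16 (-0.85) became 0.33 in DESeq2, 0.34 in edgeR, 0.53 in DESeq2 without libraries 3 and -2.31 to 1.26 with single libraries left out, the upper value without Tc library 1. Cyp3a41b (-0.91) became 0.35, 0.37, 0.54 and -2.28 to 1.20 under the same changes. Nr1i2 (-0.02) ran from -0.10 to 0.10 with single libraries left out, and was 0.06 without Control library 1. For Dox against Tc, Cyp3a13 (0.06) ran from -0.20 without Dox library 2 to 0.32 without Tc library 2, and was -0.13 without Tc library 1 and -0.0092 without Tc library 3. For single members, 529 of the other values kept their direction and their side of the threshold, 26 lost the call and 19 gained one. The levels of Cyp3a41a and Cyp3a41b are the most limited, since only 6.3% and 10.3% of their windows occur in no other gene. Their Dox levels rest on 1 read each.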
